A study of Bos taurus with 3 samples.

Results

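The genes described here encode the structural proteins of the basal lamina, namely the laminin chains, the nidogens, collagen type IV and perlecan, as read on microarrays of cultured bovine ovarian cells. The 10 genes were NID1, NID2, COL4A1, COL4A2, LAMA2, LAMA4, LAMB1, LAMB2, LAMC1 and HSPG2, and each was read from the probe sets that carry its name as their single gene symbol in the platform annotation. Of the 10 genes, 8 had a named probe set, out of 9155 genes on the array with 1 symbol. COL4A2 and LAMA2 had none and were not analysed here. The 8 genes were read by 15 probe sets, of 24016 tested, and each gene was represented by the probe set of highest mean over the arrays.

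The cultures were 2 isolates of Gonadal Ridge Epithelial-Like (GREL) cells, the polygonal cells of fetal ovaries, and 1 culture of fibroblastic cells from an adult ovary of cattle (Bos taurus). All 3 were primary cells grown in medium with fetal calf serum, and no genetic change or further treatment is named for any of them. The labels give 130 days of gestation for both isolates, while the study's methods give ages a few days apart. The isolates were selected, clonally enriched cultures and the fibroblasts came from the medullar stroma of 1 ovary, so neither represents all cells of its tissue. RNA of each culture was hybridized to 1 Affymetrix GeneChip Bovine Genome Array. The authors deposited log2 values after RMA background subtraction and quantile normalization, rounded to steps of 0.1, and their median was 2.9 in fibroblasts, 3.0 in isolate 1 and 2.9 in isolate 2. All differences below are log2 values of GREL cells minus fibroblasts. Levels are compared only within a gene, within the sum over a list of markers or with the background levels that follow, which come from other genes. The values hold no detection calls, so a background level was taken on each array from 49 genes of other organs, such as liver, pituitary and heart. Their 90th percentile was 6.04 in fibroblasts, 6.2 in isolate 1 and 6.16 in isolate 2, and their 95th percentile was 8.28, 7.96 and 7.94 in the same order. A gene below these levels may still be expressed.

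The labels were set against marker genes. All 5 epithelial markers were higher in both isolates. KRT19, a keratin of simple epithelia, was at 7.1 in fibroblasts and at 11.3 and 11.6 in isolates 1 and 2. KRT18 was at 10.4 and at 11.4 and 11.8 in the same order. KRT19, KRT7 and PKP2 stand in the study's own list of genes over 3-fold higher in GREL cells on these arrays. Their direction was thus fixed in advance and does not check the labels. All 7 stromal markers were lower in both isolates, with the receptor PDGFRA at 8.3 in fibroblasts, 6.1 in isolate 1 and 5.5 in isolate 2, and the transcription factor TCF21 at 7.4, 3.4 and 3.2. Summed on the linear scale, the epithelial markers reached 1507 in fibroblasts and 5337 and 6773 in the isolates. The stromal markers reached 8684 in fibroblasts and 5402 and 2889 in the isolates. Both sums rest mainly on the brightest genes of their list. The epithelial sum includes KRT19, KRT7 and PKP2, so it does not check the labels either. KRT7 and KRT8, named after their values were seen, lay below the 90th percentile of genes of other organs on all 3 arrays. Among all 9155 genes 41.6% were higher in both isolates and 33.5% lower. Of 6 measured markers of endothelium, a further source of basal lamina in the ovary, none was higher in both isolates and 2 were lower. The most intense of them lay at 4.7 in fibroblasts, 3.1 in isolate 1 and 2.9 in isolate 2, and their sums were 49.1, 27.4 and 29.4. PECAM1 was at 1.8, 1.6 and 2.1 and CDH5 at 2.4, 2.2 and 2.4. The study also stained the proteins FOXL2 and SF1, the product of NR5A1, in GREL cells of tissue sections. It reported weaker staining for each in most stromal cells. On the arrays FOXL2 was at 1.8 in fibroblasts, 1.9 in isolate 1 and 2.0 in isolate 2. NR5A1 was at 5.6, 4.4 and 4.3 in the same order. All these values lay below the 90th percentile of genes of other organs. FOXL2 was not clearly higher in the isolates, and NR5A1 was lower in both. RMA values have no true zero, so no marker is at 0.

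A basal lamina is a thin sheet of matrix that separates an epithelium, muscle cell or vessel from the stroma. Laminins, each a trimer of an α, a β and a γ chain, form a network and collagen type IV forms another, and the nidogens and the heparan sulphate proteoglycan perlecan bind to both. In the ovary such sheets surround the ovigerous cords, the follicles and the capillaries and lie beneath the surface epithelium. The comparison addresses which transcripts of these components stood at different levels in cultured GREL cells and in ovarian fibroblasts.

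The 8 genes did not differ in 1 direction. Nidogen 1 (NID1) and the laminin α4 chain (LAMA4) were over 5-fold lower in both GREL isolates than in fibroblasts, the laminin β2 chain (LAMB2) was over 2-fold lower, and perlecan (HSPG2) and nidogen 2 (NID2) were lower by smaller amounts. Collagen type IV α1 (COL4A1) was higher in both isolates. The laminin β1 and γ1 chains (LAMB1 and LAMC1) had values in fibroblasts that fell between those of the isolates. On all 3 arrays COL4A1, LAMB1, LAMC1, NID2 and HSPG2 exceeded the lower background level, the 90th percentile. Over 3-fold in both isolates, 2 of the 8 were lower and 0 were higher, against 2.38% of all 9155 genes lower and 2.38% higher. Over 2-fold, 3 of the 8 were lower and 0 higher, against 4.78% and 5.8% of all genes, and over 1.5-fold 4 were lower and 1 higher, against 11% and 16.3%. At any size 5 of the 8 were lower in both isolates and 1 was higher, against 33.5% and 41.6%. The median difference of the 8 genes was -0.80, and that of all genes was 0.05. In limma, with Benjamini-Hochberg adjustment over all probe sets, 0 of the 8 passed an adjusted p under 0.05, as did 0% of all probe sets. At an unadjusted p under 0.05, 4 of the 8 passed (NID1, LAMA4, LAMB2 and HSPG2), against 20.9% of all probe sets.

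**Figure D1:**
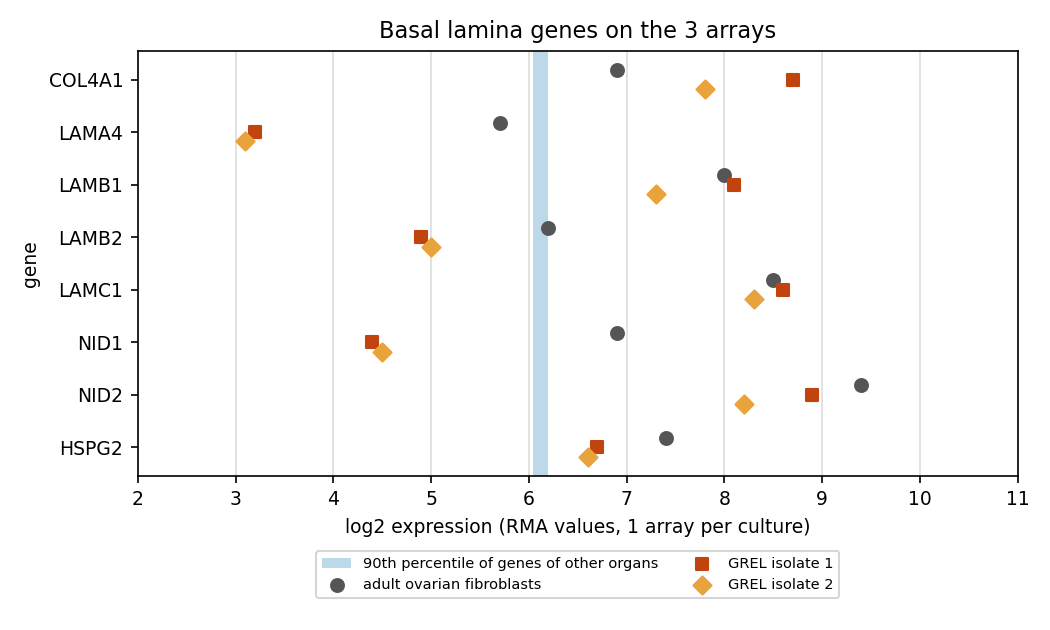
Log2 expression (horizontal axis, RMA values) of the 8 measured basal lamina genes with circles for the adult fibroblasts, squares for isolate 1 of the GREL cells and diamonds for isolate 2, 1 array each. The blue band spans the 90th percentile of genes of other organs on the 3 arrays, between 6.04 and 6.2. NID1 and LAMA4 in both isolates lie far to the left of the fibroblasts, and COL4A1 lies to the right.

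COL4A1 encodes the α1 chain of collagen type IV, which in its commonest form assembles with the α2 chain. Its log2 level was 6.9 in fibroblasts, 8.7 in GREL isolate 1 and 7.8 in GREL isolate 2. Both isolates were above the fibroblasts, by 3.48-fold and 1.87-fold, but they lay 0.9 apart from each other, as far as isolate 2 lay from the fibroblasts. The mean difference was 1.35 (standard error 0.63, n = 2 against 1), with an adjusted p = 0.392 in limma. A second, dimmer probe set of COL4A1 was at 4.4 in fibroblasts and at 6.0 and 5.0 in the isolates, which is 3.03-fold and 1.52-fold higher. Both probe sets therefore placed the arrays in the same order. By the smaller of the isolates' differences COL4A1 ranked 666 among the 9155 genes in the higher direction. COL4A2, the gene of the α2 chain, is the next gene to COL4A1 in the RefSeq gene table of cattle and was not analysed here.

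The α chain sets which receptors a laminin binds, and α4 is the chain of laminins in vessel walls and other mesenchymal tissues. LAMA4 had a log2 level of 5.7 in fibroblasts, 3.2 in isolate 1 and 3.1 in isolate 2. The isolates lay 0.1 apart and were 5.66-fold and 6.06-fold lower than the fibroblasts. The mean difference was -2.55 with a standard error of 0.07 and, in limma, an adjusted p = 0.182. LAMA4 ranked 71 among all genes in the lower direction. A second probe set, at 1.7 in fibroblasts and at 1.0 in both isolates, was 1.62-fold lower in both isolates, and the mean over both probe sets gave a difference of -1.62. LAMA4 lay below the 90th percentile of genes of other organs on all 3 arrays, which leaves the size of the difference uncertain.

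The β2 chain, which takes the place of β1 in the laminins of the kidney glomerulus and the neuromuscular junction, differed in the same direction. LAMB2 was at 6.2 in fibroblasts and at 4.9 and 5.0 in isolates 1 and 2. Both isolates were below the fibroblasts, by 2.46-fold and 2.30-fold. The mean difference was -1.25 with a standard error of 0.07 and, in limma, an adjusted p = 0.182. The 2 isolates again lay 0.1 apart, far less than either lay from the fibroblasts. Only in the fibroblasts did LAMB2 lie above the 90th percentile of genes of other organs, at 6.2 against 6.04.

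The β1 and γ1 chains, which join α1 in the classical laminin and α4 in laminins of vessel walls, did not separate the cultures. LAMB1 was at 8.0 in fibroblasts, 8.1 in isolate 1 and 7.3 in isolate 2. Isolate 1 was thus 0.1 above the fibroblasts and isolate 2 was 1.62-fold lower. Its mean difference of -0.30 was smaller than the 0.8 between the isolates. The standard error was 0.56 and, in limma, the adjusted p = 0.759. LAMC1 was at 8.5, 8.6 and 8.3 in the same order, a mean difference of -0.05 with a standard error of 0.21 and, in limma, an adjusted p = 0.899. LAMC1 was read by 5 further probe sets, all dimmer, at values from 1.5 to 4.5, and their mean differences ran from -0.20 to 0.45. Levels of the α1 and α5 chains were not analysed here.

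Nidogen 1 binds the γ1 chain of laminin and also collagen type IV, and so links both networks. NID1 was at 6.9 in fibroblasts and at 4.4 and 4.5 in isolates 1 and 2. Both isolates were far below the fibroblasts, by 5.66-fold and 5.28-fold, and only 0.1 apart. The mean difference was -2.45 with a standard error of 0.07 and, in limma, an adjusted p = 0.182. NID1 ranked 81 among all genes in the lower direction. The fibroblasts lay above the 90th percentile of genes of other organs (6.9 against 6.04) and both isolates lay below it (6.2 and 6.16), so the fold is less certain than the direction.

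Nidogen 2, the paralogue with similar binding partners, was lower in both isolates too. NID2 was at 9.4 in fibroblasts, 8.9 in isolate 1 and 8.2 in isolate 2. The isolates were lower by 1.41-fold and 2.30-fold, and the 0.7 between them exceeded the difference of isolate 1. The mean difference was -0.85 with a standard error of 0.49 and, in limma, an adjusted p = 0.449. NID2 lay above the 95th percentile of genes of other organs on all 3 arrays.

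Perlecan carries heparan sulphate chains and tethers growth factors in the sheet. HSPG2 was at 7.4 in fibroblasts and at 6.7 and 6.6 in isolates 1 and 2. Both isolates were lower, by 1.62-fold and 1.74-fold, and lay 0.1 apart. The mean difference was -0.75 with a standard error of 0.07 and, in limma, an adjusted p = 0.195.

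**Figure D2:**
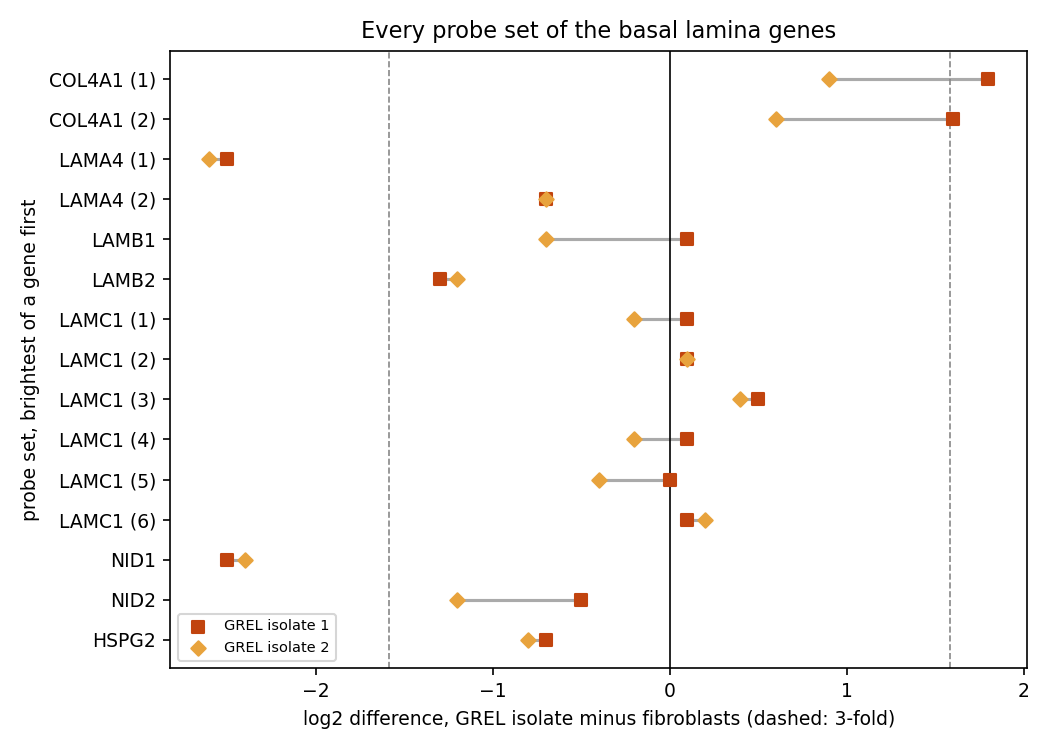
Log2 difference from the fibroblasts (horizontal axis) of GREL isolate 1 (squares) and GREL isolate 2 (diamonds) for each of the 15 probe sets of the 8 genes (rows), the brightest of a gene first, with dashed lines at 3-fold. NID1 and the brighter LAMA4 probe set are past the line at the left in both isolates, and the 6 probe sets of LAMC1 stay near 0.

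The 2 isolates were nearly equal in 4 of the 8 genes. The shares of all genes at most 0.1 or at least 0.7 apart were not counted, so closeness is not read as a trait of these genes. With values in steps of 0.1, 3513 of the 24016 probe sets had the same value in both isolates. NID1, LAMA4, LAMB2 and HSPG2 lay at most 0.1 apart, and in these 4 the difference from the fibroblasts was larger than the gap between isolates, in each case lower. Among all genes 22.7% were lower by more than that gap, and 27.9% were higher by more than it, as was 0 of the 8. With each array centred on its median COL4A1 also exceeded the gap, at 1.7 and 0.9 above the fibroblasts with 0.8 between the isolates, and the shares of all genes were then 23.8% lower and 23% higher. NID2, LAMB1 and COL4A1 lay at least 0.7 apart, with isolate 1 above isolate 2 in each. Over the 8 genes 6 were higher in isolate 1 than in isolate 2, against 34.7% of all genes. That count was 4 with the arrays centred, where LAMA4 and HSPG2 were equal in both isolates, against 24.1% of all genes. All 7 stromal markers were also higher in isolate 1 than in isolate 2, among them the matrix genes DCN at 10.8 and 10.1 and COL1A2 at 11.5 and 10.5, both named after their values were seen. The part of stromal cells in these values was not tested, and in cultured cells read in bulk fewer cells of a type and less RNA per cell cannot be told apart.

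Further genes of the basal lamina were listed by function, and their counts over 3-fold stand against the 2.38% of all genes in each direction given above. Of the other laminin and collagen type IV chains 3 were measured, and 0 were over 3-fold apart in both isolates. LAMB3, the β chain of the laminin of stratified epithelia, was at 2.4 in fibroblasts and at 3.6 and 3.8 in isolates 1 and 2. COL4A4 was at 1.2 and at 4.4 and 2.2, so the isolates themselves differed widely, and COL4A3 was at 2.3 and at 1.8 in both. All 3 lay below the 90th percentile of genes of other organs on every array. Of 8 measured proteins that associate with the basal lamina, 2 were over 3-fold lower in both isolates and 0 over 3-fold higher. COL15A1, a collagen that anchors the sheet to the stroma, was at 6.8 in fibroblasts and at 4.4 and 4.8 in the isolates. SMOC2, a calcium-binding matrix protein, was at 9.3 and at 7.3 and 6.3. COL18A1, the related collagen of epithelial and vascular basal laminas, was at 2.8 and at 4.0 and 3.8, in the other direction but at dim values throughout.

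Of 10 measured receptors for these proteins, 1 was over 3-fold higher in both isolates and 1 over 3-fold lower. The laminin-binding integrin subunit ITGA7 was at 2.9 in fibroblasts, 4.5 in isolate 1 and 5.4 in isolate 2. BCAM, a receptor of laminins with the α5 chain, was at 4.8 and at 6.4 and 5.8. SDC2, a syndecan, was at 7.1 and at 5.2 and 5.1. ITGA7 lay below the 90th percentile of genes of other organs on all 3 arrays. BCAM lay above it in isolate 1 only, and SDC2 in fibroblasts only. ITGB1 and dystroglycan (DAG1), the laminin receptors shared by most cells and named here after their values were seen, were at 10.3, 10.5 and 10.4 and at 8.0, 8.1 and 7.9. Each thus varied by no more than 0.2 over the 3 cultures. Of 15 measured proteins that modify, fold or export collagens, 2 were over 3-fold lower in both isolates and 0 over 3-fold higher, while 11 were lower in both by any amount and 2 higher, against 33.5% and 41.6% of all genes. P3H2, a prolyl 3-hydroxylase known to act on collagen type IV, was at 7.0 in fibroblasts, 4.5 in isolate 1 and 4.6 in isolate 2. P4HA3, a prolyl 4-hydroxylase subunit, was at 4.8 and at 3.0 in both. P4HA3 lay below the 90th percentile of genes of other organs on all 3 arrays, and P3H2 lay above it in fibroblasts only. COLGALT1, which adds galactose to hydroxylysine, was at 6.4 and at 6.8 and 7.3. No gene of these 4 lists passed an adjusted p under 0.05 in limma, and the lowest was 0.182.

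**Figure D3:**
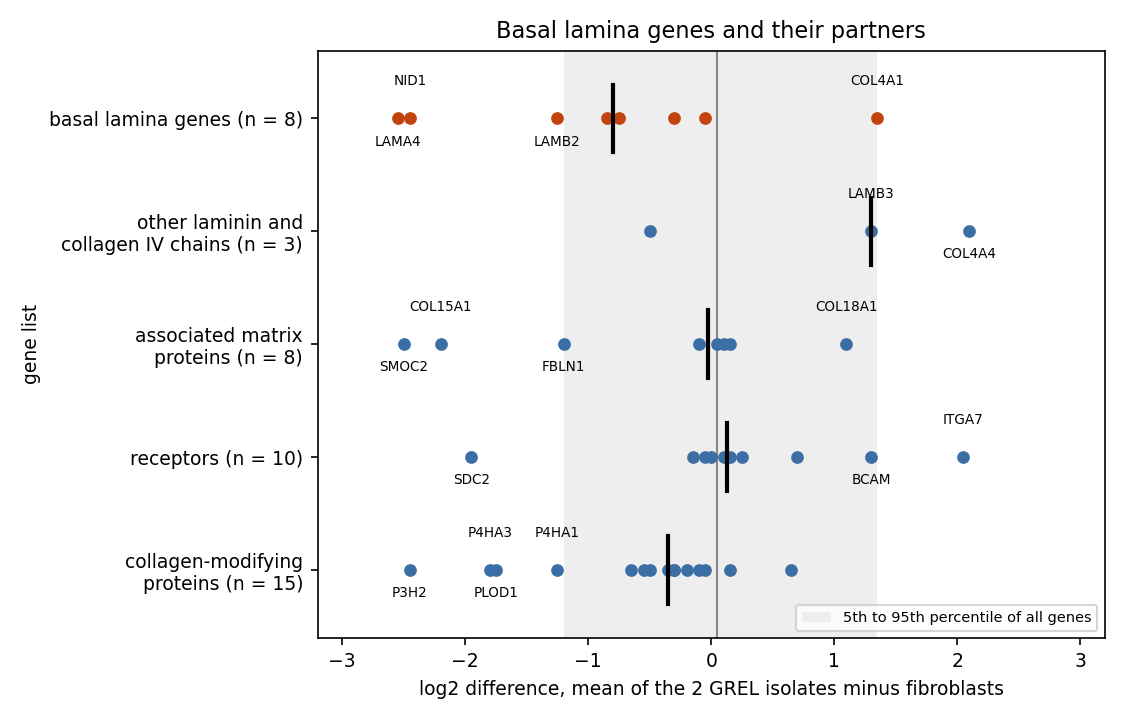
Log2 difference of each measured gene (points, horizontal axis), taken as the mean of the GREL isolates minus the fibroblast value, for the basal lamina genes and 4 lists of their partners (rows), with the median of each list as a black bar, the median of all 9155 genes as a grey line and genes past 1.0 named. The shaded span from -1.20 to 1.35 holds the 5th to 95th percentile of all genes. Of the basal lamina genes, LAMA4, NID1 and LAMB2 lie to the left of it. Partner genes also lie outside it, such as SMOC2 and P3H2 at the left and ITGA7 and COL4A4 at the right.

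The spread in limma rested on the pair of isolates, with 1 residual degree of freedom, and assumed the same spread for fibroblast cultures, of which there was 1. The standard errors of 0.07 belong to genes whose isolates differ by a single rounding step. With the values spread at random inside that step NID1 and LAMA4 passed the adjusted threshold in 20 of 20 draws. A median of 2.54% of all probe sets passed in these draws. The draws reuse the same 3 arrays, so they add no replicate and no further fibroblast culture. An exact permutation test over 3 arrays cannot go below p = 0.333. Along 4 control transcripts the 3′ minus 5′ value of an isolate differed from that of the fibroblasts by at most 0.6, and the part of RNA integrity in the differences was not tested.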

How the data were processed

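RNA of 2 GREL isolates and 1 adult ovarian fibroblast culture was measured on 1 array each. The authors' deposited log2 values, without detection calls, come from RMA and quantile normalization, and the submitters' processing notes name Partek 6.5. The genes and gene lists were chosen with earlier results of these data known. Gene symbols came from the platform annotation, and all 8 measured genes matched the current RefSeq gene table by identifier and symbol. The 112 array controls among the 24128 probe sets were not tested. The array does not say which genes are expressed, so the 95th and 90th percentiles of 49 measured genes of other organs served as background levels. Bright probe sets of POMC, PRL, APOA1 and ALB raised them. GREL cells were compared with fibroblasts by lmFit and eBayes over all probe sets with Benjamini-Hochberg adjustment (limma 3.58.1, R 4.3.3, Python 3.11.15, pandas 2.3.3), and the fit was tested on simulated data. The isolates came from 2 fetuses and the fibroblasts from 1 ovary, so p-values measure the spread between 2 cultures only. The number of arrays limits the precision. The text names all the genes under study, defining markers of cell types and, from each list of partners, genes over 3-fold in both isolates and up to 2 highest and 2 lowest. Names outside this rule are said to have been chosen after their values were seen or to come from the study. Alternatives were the methods' one way ANOVA, other variance priors, values spread within the rounding step, a filter on dim probe sets, other normalizations, the mean over probe sets, other fold thresholds and leaving out either isolate.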

Additional observations from a re-analysis of the deposited data

How the results depend on the processing

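Of 40 recomputed log2 differences of the 8 genes, 37 kept their sign and 3 turned. LAMC1 was at 0.067 as the mean over its probe sets. Without 1 isolate LAMC1 ran from -0.20 to 0.10 and LAMB1 from -0.70 to 0.10, both at 0.10 without isolate 2. Limma called 0 probe sets, as did the ANOVA of the methods, the intensity trend, the filter on dim probe sets and both other normalizations. The filter kept only 851 probe sets and 2 of the 8 genes, NID2 and LAMC1, so the other genes could not be called there. The ANOVA covered 20503 probe sets, since those with equal isolates were left out. A robust prior called 1189 of 24016 probe sets, none of them a probe set that represents the 8 genes. With so few genes, 0 of 8 is not read as a result about them. Spreading the values inside the rounding step gave a median of 609 calls (2.54% of probe sets) and of 2 among the 8 genes. These were LAMA4 and NID1, each called in 20 of 20 draws. The draws reuse the same 3 arrays and are not replicates. Without 1 isolate the genes lower numbered 5 to 7 and those higher 1 to 3. Those over 3-fold lower numbered 2 and those over 3-fold higher 0 to 1 (COL4A1 without isolate 2). The shares of all genes with a single isolate were not counted, and the shares above are for both isolates. These counts are therefore not read as a trait of the genes. The median difference without 1 isolate ran from -1.0 to -0.60. At 1.5-fold in place of 3-fold, 4 were lower and 1 higher. Above the 95th percentile of genes of other organs lay 2 of the 8 in fibroblasts, 4 in isolate 1 and 2 in isolate 2, and above the 90th 7, 5 and 5. The cause of these changes was not tested.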

Other observations

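Other cell type markers gave these values, and DES, CNN1, NR5A1, KIT and CD14 are named after their values were seen. The counts stand against 33.5% of all genes lower in both isolates and 41.6% higher. Of 6 smooth muscle and pericyte markers 2 were lower in both GREL isolates and 1 was higher, with ACTA2 at 10.5 in fibroblasts and at 10.4 and 10.7 in isolates 1 and 2 and MYH11, a marker of mature smooth muscle, at 1.7, 1.3 and 1.9. The lower ones were DES, the intermediate filament of muscle, at 9.5, 8.3 and 8.1, which is 2.30-fold and 2.64-fold lower, and CNN1, an actin-binding protein of smooth muscle, at 8.5, 8.1 and 7.8. Of 5 granulosa cell markers 2 were higher in both isolates and 1 was lower, with FOXL2 at 1.8, 1.9 and 2.0. The lower one was NR5A1, a transcription factor of steroid-producing cells, at 5.6, 4.4 and 4.3, which is 2.30-fold and 2.46-fold lower. The study's stains also placed FOXL2 and SF1, the protein of NR5A1, in GREL cells and, more weakly, in stromal cells. Of 5 blood cell markers 4 were lower in both and 1 was higher, with PTPRC at 2.1, 2.0 and 1.9 and CD14 at 2.6, 1.4 and 2.1. Of 2 measured germ cell markers, which leave out DDX4, 1 was lower in both isolates and 0 were higher. It was KIT, a receptor tyrosine kinase also found outside the germ line, at 5.7 in fibroblasts, 1.5 in isolate 1 and 2.7 in isolate 2, which is 18.4-fold and 8-fold lower. All values of the granulosa, blood and germ cell markers lay below the 90th percentile of genes of other organs, which leaves their differences uncertain. Of the 6 smooth muscle and pericyte markers 4 lay above it on each array, and MYH11 lay below it on all. None of the markers in this section passed an adjusted p under 0.05 in limma.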
